A study of Rattus norvegicus with 10 samples.

Results

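The apolipoproteins examined here were 10 genes of rat liver: Apoa1, Apoa2, Apoa4, Apoa5, Apob, Apoc1, Apoc3, Apoe, Apoh and Apom. They were chosen by name, and every array probe whose accession leads to one of these gene symbols in rat RefSeq was taken. They are 10 of the 13832 genes that the arrays name in this way and 10 of the 6855 whose signal was bright enough to test. Liver RNA came from 10 male Wistar rats, with 1 single-colour Agilent whole rat genome array per rat. The 5 DEN/TAA rats had been injected intraperitoneally with diethylnitrosamine (DEN) at 200 mg/kg, 1 time, when 6 weeks old. Thioacetamide (TAA) followed by the same route from 2 weeks afterwards, at 200 mg/kg and 2 injections a week, with 3 weeks of injections and 1 week of rest in each cycle. The 5 control rats had received vehicle alone. DEN is a liver carcinogen that alkylates DNA. TAA is turned into a toxic form by hepatocytes and causes scarring, and the series title presents the protocol as a model of liver cancer arising in cirrhosis. The labels give 23 weeks both as the length of treatment and as the age of every rat, which cannot both hold for a treatment begun at 6 weeks of age, so the duration is not settled. The labels name the tissue as liver, without saying whether a piece held tumour, and the replicates are numbered samples that were each taken as 1 animal.

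Apolipoproteins are the protein coat of lipoprotein particles, which carry triglyceride and cholesterol in blood. Hepatocytes make most of them: Apob is the backbone of very-low-density lipoprotein (VLDL), Apoa1 and Apoa2 are the main proteins of high-density lipoprotein (HDL), and the smaller exchangeable proteins move between particles and set how fast these are broken down and taken up. Loss of secreted plasma proteins is a known feature of scarred liver, and rat liver also makes Apoa4, which in people comes mainly from the intestine.

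Among the 10 apolipoproteins, 9 were lower in DEN/TAA livers than in control livers, and Apoa1 was the exception. The 5 DEN/TAA rats and the 5 control rats did not overlap for those 9 genes. Falls ran between 1.69-fold for Apob and 10.6-fold for Apom, a lipocalin that rides on HDL. Each level below is a log2 signal over its array's 75th percentile, so that 0 is the brightness of that percentile, and each difference is DEN/TAA minus control on that log2 scale. Of all genes tested, 16.3% were lower and 39.2% were higher at the same threshold (limma, adjusted p under 0.05), and 39.4% had no overlap between the groups. The median of the 10 differences was -1.73, against 0.33 for all genes tested. Those genes include some above background mainly on DEN/TAA arrays, which favours higher calls. Among the 3568 genes above background on all 10 arrays, 944 were lower and 1154 higher, with a median of 0.10. The same limit holds for the shares of all genes given below. Every one of the 15 probes for the 10 genes was well above background on each of the 10 arrays. In whole-liver RNA, fewer hepatocytes and less apolipoprotein RNA per hepatocyte cannot be told apart.

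**Figure D1:**
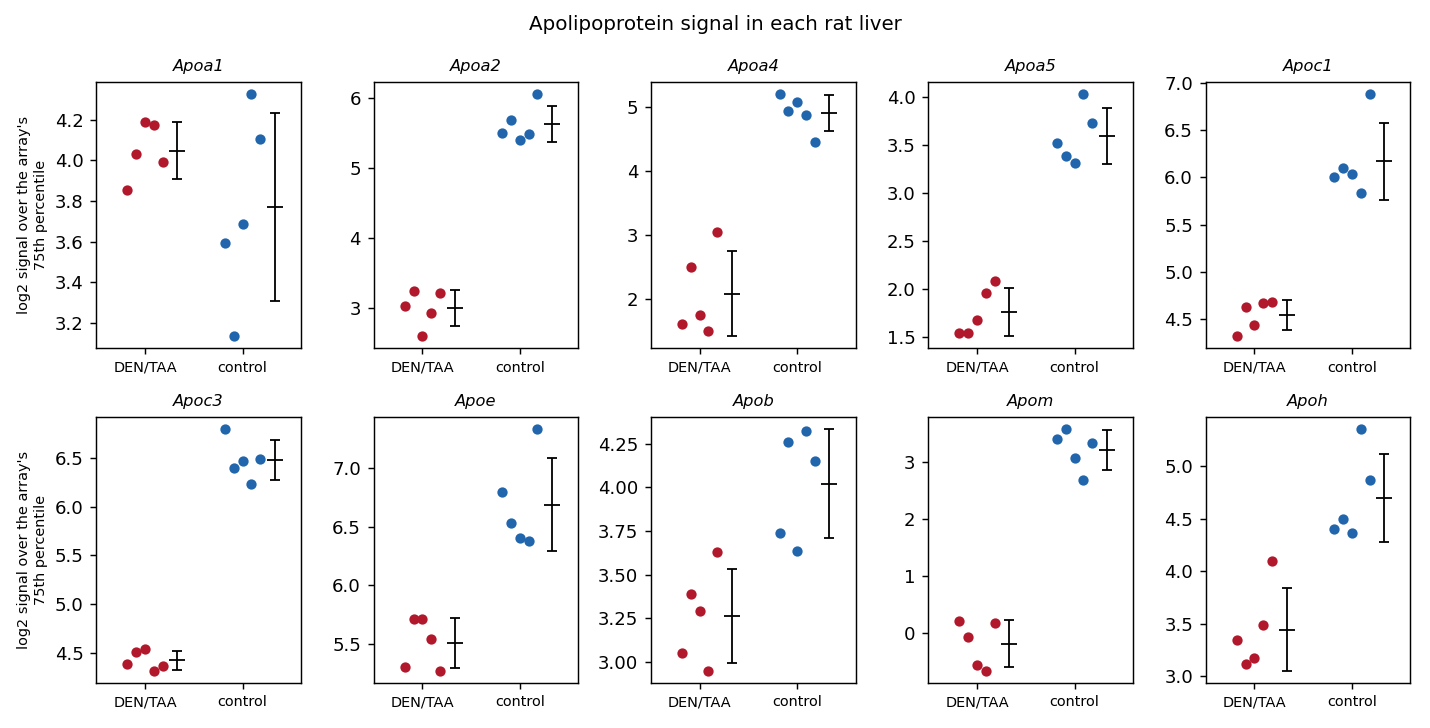
Log2 signal of each apolipoprotein over its array's 75th percentile (vertical axis) in DEN/TAA livers (red, left) and control livers (blue, right), 1 point per rat, with group mean and SD beside the points (n = 5 each). Each panel has its own vertical range, and heights are not comparable between panels because every gene has its own probe. The groups are apart in 9 panels and overlap for Apoa1.

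DEN/TAA arrays were brighter than control arrays, which matters for every level given here. Spots well above background made up 36.1% to 46.5% of spots on DEN/TAA arrays and 16.5% to 32.9% on control arrays, and the 5 brightest spike-in probes averaged 13.88 ± 0.18 log2 units on DEN/TAA arrays and 13.06 ± 0.45 on control arrays (SD, n = 5 each). Before scaling, the Apoe probe read 17.77 ± 0.16 in DEN/TAA livers and 17.48 ± 0.32 in control livers, while the Apom probe read 12.07 ± 0.72 in DEN/TAA livers and 14.00 ± 0.69 in control livers (log2, SD, n = 5 each). Across 6 ways of scaling, the median of all genes moved between -0.28 and 0.99. Under each of the 6, the differences of the 9 genes other than Apoa1 lay below that median, at -3.73 to -3.02 relative to it for Apom and -1.51 to -0.16 for Apoe. The main percentile, the percentile over all probes and spike-in scaling differ only by a constant per array. A value relative to the median is therefore the same under them by construction, and they are not separate checks of it. The part of the brightness gap in these results was not tested.

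**Figure D2:**
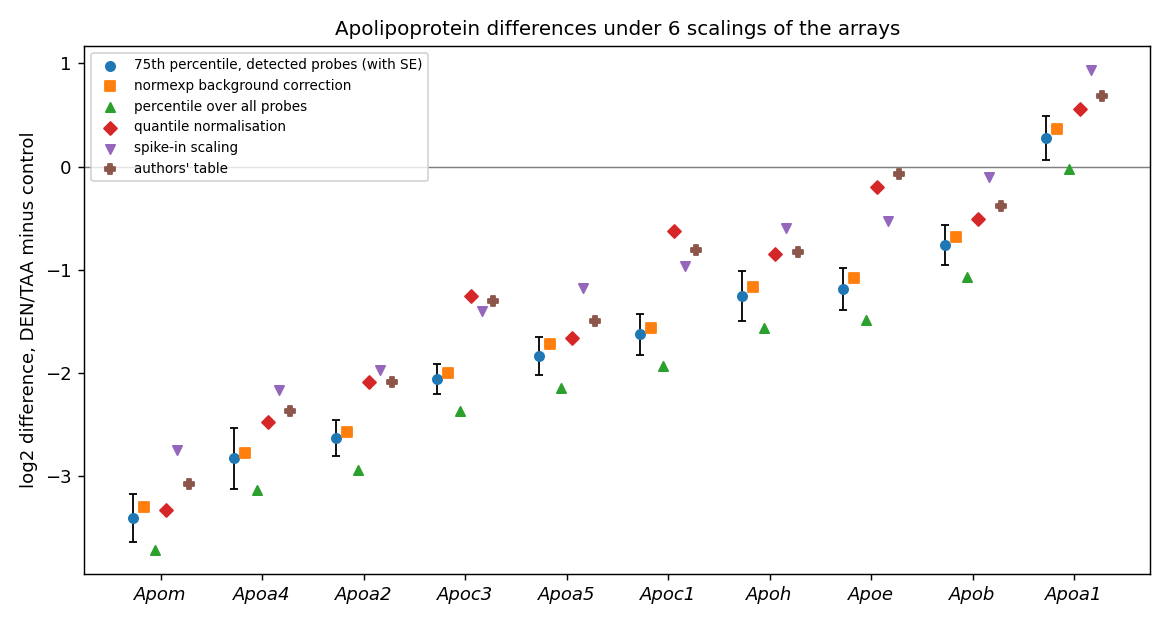
Log2 difference of each apolipoprotein, DEN/TAA minus control (vertical axis), under 6 scalings of the arrays, with genes ordered by the difference on the percentile scale and the SE drawn for that scale (n = 5 each). Apom, Apoa4, Apoa2, Apoc3, Apoa5 and Apoc1 stay at -0.62 or lower throughout, Apob and Apoe come close to 0 under some scalings, and Apoa1 lies on either side of it.

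Promoter sequence is shown for 3 of the genes with large falls, Apom, Apoa4 and Apoa5, since liver transcription factors that bind at apolipoprotein genes are described further on. Promoter windows from RefSeq (rat assembly GRCr8) were used for 6 of the 10 genes, these 3 and Apoc1, Apoe and Apoh. Those of Apoa1, Apoa2, Apob and Apoc3 were not used here. Each line gives the 250 bases before an annotated start site, 5′ to 3′ on the strand of the gene, and capitals mark matches on either strand to 5 motifs.
Apom, chr20:3695368-3695617, + strand: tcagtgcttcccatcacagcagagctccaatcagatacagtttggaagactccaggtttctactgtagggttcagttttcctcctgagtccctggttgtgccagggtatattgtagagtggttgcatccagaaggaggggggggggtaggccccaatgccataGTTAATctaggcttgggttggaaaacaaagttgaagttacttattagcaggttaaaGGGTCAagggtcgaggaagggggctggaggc
Apoa4, chr8:55435529-55435778, + strand: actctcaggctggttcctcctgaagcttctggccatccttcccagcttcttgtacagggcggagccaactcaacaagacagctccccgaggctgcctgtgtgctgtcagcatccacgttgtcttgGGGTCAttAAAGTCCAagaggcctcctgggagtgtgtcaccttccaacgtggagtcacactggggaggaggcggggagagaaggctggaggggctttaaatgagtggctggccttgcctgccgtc
Apoa5, chr8:55457621-55457870, + strand: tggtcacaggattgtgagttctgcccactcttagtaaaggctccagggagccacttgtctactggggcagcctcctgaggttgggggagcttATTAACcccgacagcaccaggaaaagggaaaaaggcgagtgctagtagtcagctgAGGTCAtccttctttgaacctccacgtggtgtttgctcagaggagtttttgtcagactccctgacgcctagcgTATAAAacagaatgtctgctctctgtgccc
The motifs were the nuclear receptor half-sites GGGTCA and AGGTCA, the HNF4-type core AAAGTCCA, the HNF1-type half-site GTTAAT and the TATA-type TATAAA, none of which overlapped another in these windows. Apom held GGGTCA at -31 to -26 from its start and GTTAAT at -87 to -82. Apoa4 held GGGTCA at -125 to -120 and AAAGTCCA at -117 to -110, close beside it. Apoa5 held AGGTCA at -103 to -98, GTTAAT on the opposite strand at -158 to -153 and TATAAA at -30 to -25. Among 33469 rat promoter windows of this length, 11.9% held GGGTCA, 14.1% AGGTCA, 1.19% AAAGTCCA, 6.45% GTTAAT and 12.9% TATAAA. Of the genes whose windows are not printed, Apoe also held GGGTCA, Apoc1 held GTTAAT and Apoh held 0 matches. GGGTCA and GTTAAT were thus not particular to the printed genes. AAAGTCCA was found in Apoa4 alone, and AGGTCA and TATAAA in Apoa5 alone, among the 6 genes with windows. A link between motifs and the size of a fall was not tested. A match describes the letters and does not show binding.

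Among the HDL apolipoproteins, Apom and Apoa2 fell strongly and Apoa1 did not pass the test. Apom, which carries sphingosine-1-phosphate on HDL, read 0.20, -0.08, -0.57, -0.67 and 0.17 in the DEN/TAA rats, against 3.41, 3.58, 3.07, 2.69 and 3.33 in the control rats. Every DEN/TAA liver was over 2 log2 units below every control liver. Its mean was -0.19 ± 0.41 in DEN/TAA livers and 3.22 ± 0.35 in control livers (SD, n = 5 each), a difference of -3.41 (SE 0.23, limma adjusted p = 8.24e-07). Only 0.554% of the genes tested had a lower difference.

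Apoa2, the second protein of HDL, read 3.02, 3.23, 2.59, 2.92 and 3.20 in the DEN/TAA rats and 5.49, 5.68, 5.41, 5.49 and 6.05 in the control rats. The 2 groups were far apart, with little spread inside each. The difference was -2.63 (SE 0.18, limma adjusted p = 8.24e-07), a 6.20-fold fall.

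Apoa1, the scaffold protein on which HDL is built, behaved differently. It read 3.85, 4.03, 4.19, 4.17 and 3.99 in the DEN/TAA rats, against 3.59, 3.14, 3.69, 4.32 and 4.10 in the control rats. The DEN/TAA values lay inside a narrow band, and the control values lay on both sides of it. The mean was 4.05 ± 0.14 in DEN/TAA livers and 3.77 ± 0.46 in control livers (SD, n = 5 each), a difference of 0.28 (SE 0.21, limma adjusted p = 0.287), and 47.6% of the genes tested had a lower difference. Its call depended on the scaling. It was higher in DEN/TAA livers under quantile normalisation (0.56, adjusted p = 0.0319), spike-in scaling (0.94, adjusted p = 0.00543) and the authors' table (0.69, adjusted p = 0.00461), and it was -0.03 with the percentile taken over all probes (adjusted p = 0.931). No scaling put it among the genes that fell.

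The apolipoproteins that act on triglyceride breakdown all fell. Apoa4, which coats newly made triglyceride-rich particles, read 1.61, 2.50, 1.75, 1.50 and 3.04 in the DEN/TAA rats and 5.20, 4.94, 5.08, 4.87 and 4.45 in the control rats. Among the DEN/TAA livers it varied more than any other apolipoprotein here, with an SD of 0.66, and the rat with the highest value still lay below every control rat. The difference was -2.83 (SE 0.29, limma adjusted p = 1.32e-05), a 7.10-fold fall.

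Apoa5, which raises lipoprotein lipase activity and lowers plasma triglyceride, read 1.54, 1.54, 1.68, 1.96 and 2.08 in the DEN/TAA rats, against 3.52, 3.38, 3.31, 4.03 and 3.73 in the control rats. Here too no DEN/TAA liver came near the control range. The difference was -1.84 (SE 0.18, limma adjusted p = 1.00e-05), a 3.57-fold fall.

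Apoc3 opposes Apoa5, since it inhibits lipoprotein lipase and delays the uptake of particles. Its signal was 4.38, 4.50, 4.54, 4.31 and 4.36 in the DEN/TAA rats and 6.80, 6.40, 6.47, 6.24 and 6.49 in the control rats. It had the smallest spread of the 10 genes in both groups, with an SD of 0.096 in DEN/TAA livers and 0.20 in control livers. The difference was -2.06 (SE 0.14, limma adjusted p = 9.63e-07), a 4.17-fold fall. Its 2 probes gave -2.06 and -2.20.

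Apoc1, which slows the removal of remnant particles, ranged over 4.32 to 4.68 in DEN/TAA livers and 5.84 to 6.88 in control livers. The difference was -1.62 (SE 0.20, limma adjusted p = 4.31e-05), a 3.08-fold fall. The top of the control range was control rat 5, whose array was the dimmest of the 10, and without that rat the groups were still apart.

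Apoe and Apob, the ligands by which receptors take particles up, fell least among the genes that passed the test, together with Apoh. Apoe read 5.30, 5.71, 5.71, 5.54 and 5.27 in the DEN/TAA rats and 6.80, 6.53, 6.40, 6.38 and 7.33 in the control rats. The groups were apart on this scale. The difference was -1.18 (SE 0.20, limma adjusted p = 0.000476), a 2.27-fold fall, and it was -0.20 after quantile normalisation (adjusted p = 0.168) and -0.07 in the authors' table (adjusted p = 0.377), where the call was lost.

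Macrophages also make Apoe, and their markers moved the other way. Of 13 macrophage markers measured of 15 listed, 12 were higher and 0 lower in DEN/TAA livers, where 39.2% of all genes were higher. Over the 6 scalings 8 to 13 were higher and at most 1 lower. Their mean level ran between -1.62 and -1.03 in DEN/TAA livers and between -4.06 and -2.71 in control livers. Trem2, a lipid-sensing receptor of macrophages in injured liver, was above background on no control array. It was at least 5.33-fold higher in DEN/TAA livers on the percentile scale, while its lowest log2 difference over the 6 scalings was 1.69, below that bound. Here and below, "at least" sets the brighter group's mean against the lowest signal well above background on each dim array. A gene above background on no control array entered the test only through its DEN/TAA arrays, which favours a higher call. Its limma p is therefore not given, though the gene stays in the counts of higher genes. Cd68, a lysosomal protein of macrophages, was higher by 1.95 (SE 0.21, limma adjusted p = 1.92e-05). In all, 3 of these markers had no control array above background. Among them was Cd163, whose difference of 0.84 became -0.23 with undetected arrays raised to the lowest signal above background. The median of the 13 markers was 1.62, or 1.54 with arrays raised in this way. The part of these cells in the Apoe level was not tested.

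Apob read 3.05, 3.39, 3.29, 2.95 and 3.63 in the DEN/TAA rats, against 3.74, 4.26, 3.64, 4.32 and 4.15 in the control rats. The nearest values of the groups, 3.63 and 3.64, almost touched. The difference was -0.76 (SE 0.19, limma adjusted p = 0.00570), a 1.69-fold fall. It was -0.10 under spike-in scaling (adjusted p = 0.743) and -0.39 in the authors' table (adjusted p = 0.0785). The value also rested on 1 of the 5 Apob probes, the brightest, and the mean over the probes gave -0.38 (adjusted p = 0.0982). In the fit over all 14277 probes, of which 13.7% were lower, that probe gave -0.76 (limma adjusted p = 0.00791). The other four Apob probes gave -0.52, -0.47, -0.18 and 0.05, none past the threshold (limma adjusted p = 0.0733, 0.0972, 0.601 and 0.910). Of all 15 apolipoprotein probes, 10 were lower past the threshold, and the 5 that were not were these 4 and the Apoa1 probe. Rat liver edits Apob RNA so that a shorter protein is made, and the place of each probe on the transcript was not used here.

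**Figure D3:**
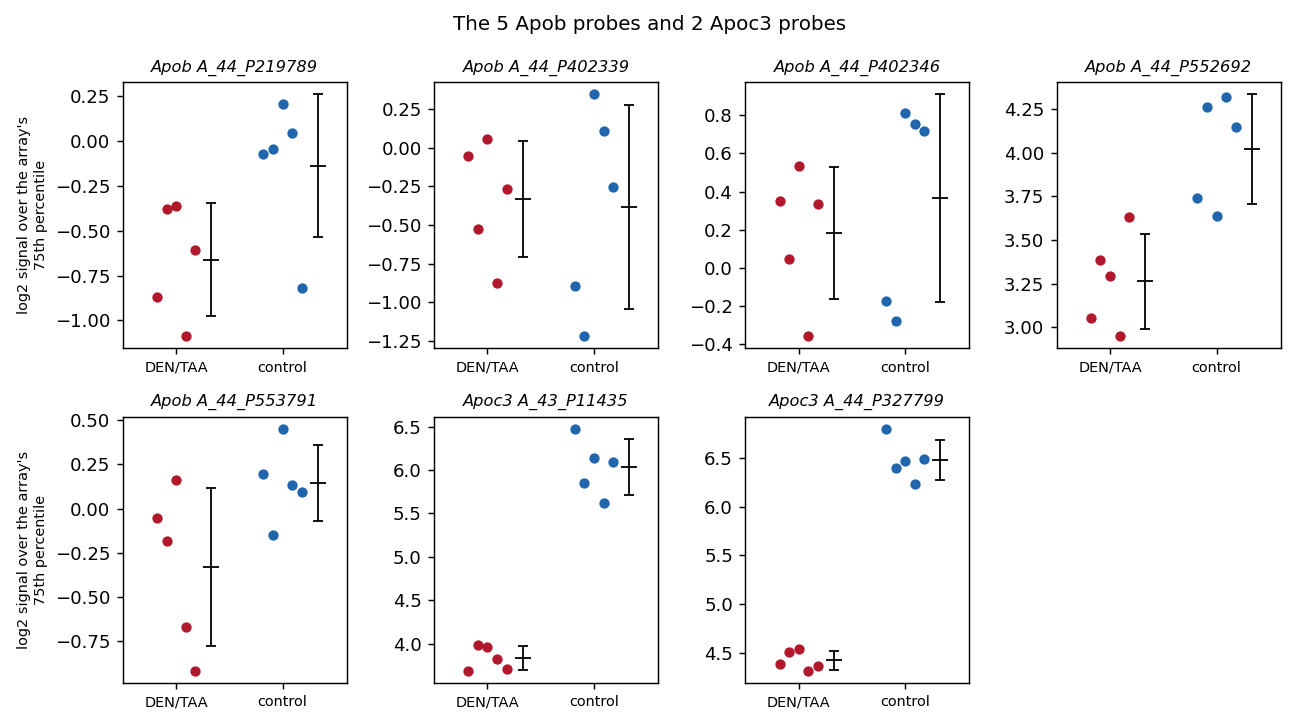
Log2 signal over the array's 75th percentile (vertical axis) for the 5 Apob probes and 2 Apoc3 probes in DEN/TAA livers (red, left) and control livers (blue, right), 1 point per rat, with group mean and SD (n = 5 each) and a separate vertical range per panel. Only the brightest Apob probe, A_44_P552692, has its groups apart among the Apob probes, while both Apoc3 probes do.

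Apoh, also called beta-2-glycoprotein I, binds phospholipid surfaces and is found only in part on lipoproteins. It ranged over 3.11 to 4.09 in DEN/TAA livers and 4.37 to 5.35 in control livers. The difference was -1.26 (SE 0.24, limma adjusted p = 0.00107), a 2.39-fold fall, which under spike-in scaling was -0.60 (adjusted p = 0.102).

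The arrays lay on 3 slides that each held both groups. Within slides 1, 2 and 3 the difference was -3.43, -3.69 and -2.84 for Apom and -2.16, -2.04 and -2.0 for Apoc3. For Apoe it was -1.16, -0.78 and -1.59, and for Apob -0.78, -0.52 and -0.60. Apoa4 gave -3.01, -3.46 and -1.62, the last from the slide of DEN/TAA rat 5, in which Apoa4 was highest. The other four genes that fell were lower within every slide, between -2.65 for Apoa2 and -1.02 for Apoh. Apoa1 gave 0.58, 0.49 and -0.23, so its direction differed between slides. With the slide as a block, the 9 genes kept their calls and Apoa1 gave 0.32 (limma adjusted p = 0.145).

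Several of these genes are neighbours, which allows a comparison within a locus. In RefSeq the protein-coding genes Apoa1, Apoc3, Apoa4 and Apoa5 follow one another between Sik3 and Zpr1, and Apoc4, Apoc1 and Apoe follow one another before Tomm40. The difference between 2 genes within an array is free of any constant scaling between arrays, and it was set between the groups with a two-sided exact permutation test over the 252 assignments of 5 rats to a group, whose smallest p is 0.00794. Of the 45 pairs of apolipoproteins, 32 differed in response after adjustment over the pairs, and 25 pairs had groups without overlap. The share among pairs of other genes was not computed, and 39.4% of single genes tested had no overlap. The counts are thus not read as particular to apolipoproteins.

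In the first locus Apoa1 stood apart from its 3 neighbours. Relative to Apoc3, the gene next to it, Apoa1 shifted by 2.34 log2 units between the groups (-0.37 ± 0.15 in DEN/TAA livers and -2.71 ± 0.57 in control livers, SD, n = 5 each, exact permutation test, adjusted p = 0.0143). The shift was 3.11 relative to Apoa4 and 2.12 relative to Apoa5 (exact permutation test, adjusted p = 0.0143 each). The same adjusted p held for Apoa1 against all 9 other apolipoproteins, with no overlap in any of the 9 pairs. Apoc3, Apoa4 and Apoa5 were less clearly different from one another: Apoa5 against Apoc3 gave 0.22 (exact permutation test, adjusted p = 0.383), Apoc3 against Apoa4 0.77 (adjusted p = 0.103) and Apoa5 against Apoa4 0.99 (adjusted p = 0.0612). Without DEN/TAA rat 5 the shift between Apoc3 and Apoa4 was 1.02 and passed (exact permutation test, adjusted p = 0.0335), and it also passed after quantile normalisation (1.22, adjusted p = 0.0112) and in the authors' table (1.07, adjusted p = 0.0325).

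In the second locus Apoe fell less than Apoc1, its neighbour. Apoe minus Apoc1 was 0.96 ± 0.25 in DEN/TAA livers and 0.52 ± 0.17 in control livers (SD, n = 5 each), a shift of 0.44 with overlapping groups (exact permutation test, adjusted p = 0.0246). Apoc2, the activator of lipoprotein lipase, and Apoc4 lie on the far side of Apoc1 and fell by 2.20 and 1.71 (limma adjusted p = 1.12e-05 and 0.000240).

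**Figure D4:**
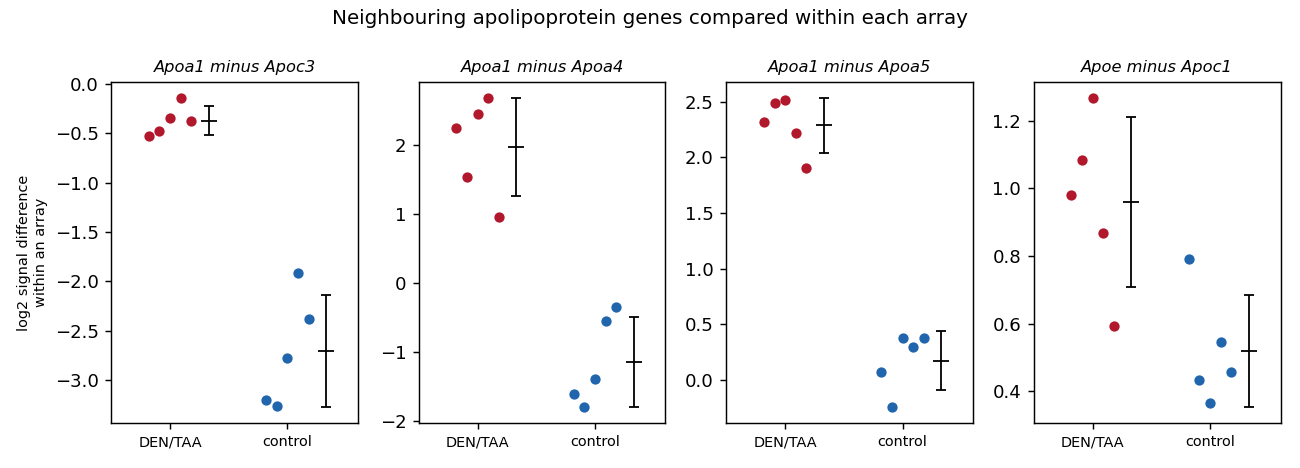
Log2 signal of 1 apolipoprotein minus that of a gene in the same locus, within each array (vertical axis), in DEN/TAA livers (red, left) and control livers (blue, right), 1 point per rat with group mean and SD (n = 5 each). The height within a panel depends on the probes, and the step between the groups is the difference in response, for example 2.34 for Apoa1 against Apoc3.

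Outside the loci, Apom fell more than 8 of the 9 others, the exception being Apoa4 (shift 0.58, exact permutation test, adjusted p = 0.119). Apoa2, Apoa4 and Apom were the 3 with the largest falls, and Apoa2 did not differ detectably from Apoa4 (shift 0.20, exact permutation test, adjusted p = 0.609). Apoe and Apoh gave nearly equal falls, with a shift between them of 0.07 (exact permutation test, adjusted p = 0.762).

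Hepatocyte products other than apolipoproteins were lower as well, so each gene was set beside them. The mean of 8 secreted hepatocyte proteins, among them albumin (Alb), Ttr and Ambp, was 4.35 ± 0.080 in DEN/TAA livers and 5.64 ± 0.23 in control livers (SD, n = 5 each). All 8 were lower by the same limma test, while under the other scalings between 3 and 8 of them were lower and at most 1 was higher. Ttr, the transthyretin that carries thyroid hormone and retinol-binding protein, fell by 2.03 (SE 0.22), Ambp fell by 1.44 (SE 0.17) and Alb fell by 0.92 (SE 0.25). Their limma adjusted p were 1.79e-05, 3.30e-05 and 0.00937, and Alb was 0.15 after quantile normalisation (adjusted p = 0.442).

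Against that mean, within each array, 6 apolipoproteins shifted lower and 2, Apoa1 and Apob, shifted higher. Apom fell further by 2.12, Apoa2 by 1.35, Apoc3 by 0.77 and Apoa5 by 0.55 (exact permutation test over rats, adjusted over the 10 genes, p = 0.0159 each). Apoa4 fell further by 1.54 (exact permutation test, adjusted p = 0.0265), although by only 0.18 within the slide of DEN/TAA rat 5. Apoa1 shifted by 1.56 in the other direction (exact permutation test, adjusted p = 0.0159), and within slides 1, 2 and 3 by 1.79, 1.59 and 1.22. The shift of Apoc1 was -0.34 and that of Apob 0.53, each at an adjusted p of 0.0496 by the exact permutation test, and these calls ended when 1 rat was left out in 8 of 10 cases for Apob and 9 of 10 for Apoc1. After quantile normalisation Apob gave -0.05 and Apoc1 -0.16 (exact permutation test, adjusted p = 0.698 and 0.317). Both calls were also lost in the authors' table, that of Apob under normexp correction and that of Apoc1 with the mean over probes. Apoe (0.10) and Apoh (0.03) did not differ from the mean by more than the spread between rats (exact permutation test, adjusted p = 0.529 and 0.929), although Apoe passed on the higher side in the authors' table (0.45, exact permutation test, adjusted p = 0.0113) and after quantile normalisation (0.26, adjusted p = 0.0227).

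Of the other apolipoprotein genes, 5 of 10 listed were measured and 4 were lower, where 16.3% of all genes were lower and 39.2% higher. The count of lower genes was 4 under every scaling, and at most 1 was higher. Their median of -1.81 ran between -2.11 and -1.15 over the scalings. Apon, a plasma apolipoprotein of rodents, fell by 2.50 (SE 0.28, limma adjusted p = 2.69e-05) and Apoc2 fell by 2.20 (SE 0.22). The gene that did not pass was Clu, which encodes apolipoprotein J or clusterin (0.28, SE 0.18, limma adjusted p = 0.222). It was named after its value was seen.

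Most of the genes that load Apob with lipid and export VLDL did not pass the test. Of 14 measured of 16 listed, 3 were lower, 1 was higher and 10 did not pass, where 16.3% of all genes were lower and 39.2% higher, and between 1 and 7 of the 14 were lower over the 6 scalings. Their median of -0.43 ran between -0.74 and 0.23 over the 6 scalings. Mttp, the transfer protein that loads lipid onto Apob, read -1.28 ± 0.29 in DEN/TAA livers and -1.28 ± 0.27 in control livers (SD, n = 5 each, limma adjusted p = 0.991), although spike-in scaling gave 0.66 (adjusted p = 0.0295). Dgat2, which makes triglyceride, fell by 1.44 (SE 0.19, limma adjusted p = 8.21e-05). Its other probes gave -1.20, which passed, and -0.99, which did not (limma over probes, adjusted p = 0.00441 and 0.0797). Tm6sf2, which acts in VLDL lipidation, fell by 0.69 (SE 0.18, limma adjusted p = 0.00606), a call lost under spike-in scaling (-0.034, adjusted p = 0.922). Apobec1, the enzyme that edits Apob RNA, was higher by 0.88 (SE 0.28, limma adjusted p = 0.0189), a call lost under 4 of the other scalings, where it lay between 0.37 and 0.70.

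Genes of HDL formation and of lipoprotein remodelling in plasma moved in both directions. Of 12 measured of 16 listed, 7 were lower, 3 higher and 2 did not pass, against 16.3% lower and 39.2% higher of all genes. Over the 6 scalings 4 to 7 were lower, and the median of -0.99 ran between -1.30 and -0.33. Lipc, the hepatic lipase, fell by 2.11 (SE 0.21, limma adjusted p = 9.37e-06) and Lcat, which esterifies cholesterol on HDL with Apoa1 as its cofactor, fell by 1.40 (SE 0.15, limma adjusted p = 1.38e-05). Lpl, the lipoprotein lipase that Apoc3 inhibits and that adult hepatocytes make little of, reached above background on every DEN/TAA array and no control array. It entered the test only through the DEN/TAA arrays, and was at least 3.83-fold higher on the percentile scale. The lowest log2 difference of Lpl over the 6 scalings was 1.095, which is below that bound. The other Lpl probe gave 1.63 on the percentile scale. Abcg1, a cholesterol exporter to HDL that macrophages use, was higher by 2.16 (SE 0.18, limma adjusted p = 3.14e-06), and by 1.14 at the lowest over the scalings. Abca1, which loads lipid onto Apoa1, gave -0.05 (SE 0.19, limma adjusted p = 0.857).

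Of the receptors and adaptors that take lipoproteins up, 9 of 13 listed were measured, 3 higher, 2 lower and 4 not past the test, shares near those of all genes (39.2% higher and 16.3% lower). The median was 0.20, or -0.22 with undetected arrays raised to the lowest signal above background. Over the 6 scalings that median took either sign (-0.70 to 0.86). Lrp1, a hepatocyte receptor for Apoe-bearing remnants, fell by 1.74 (SE 0.22, limma adjusted p = 5.27e-05) and Lrp2, a related large receptor, fell by 1.21 (SE 0.34, limma adjusted p = 0.0103). The Lrp2 call was lost under spike-in scaling (-0.55, adjusted p = 0.181) and in the authors' table (-0.24, adjusted p = 0.148). Sort1, which sorts Apob, and Mylip, which marks lipoprotein receptors for breakdown, were above background on no control array and at least 1.29-fold and 1.13-fold higher, and normexp correction turned both to -0.36 and -0.49.

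Regulators with binding sites described at apolipoprotein genes were also measured, 15 of 19 listed. Of these 6 were lower, 1 higher and 8 not past the test (between 3 and 10 lower over the 6 scalings, and 16.3% of all genes), with a median of -0.65 that ran between -1.04 and 0.01 over the 6 scalings. Mlxipl, the carbohydrate-response factor, fell by 1.88 (SE 0.23, limma adjusted p = 3.91e-05) and Nr1h4, the bile acid receptor, fell by 1.17 (SE 0.20, limma adjusted p = 0.000486), with the Nr1h4 call lost under spike-in scaling (-0.51, adjusted p = 0.165). Hnf4a, a nuclear receptor that keeps hepatocyte genes on, fell by 0.99 (SE 0.18, limma adjusted p = 0.000748), a call lost under spike-in scaling (-0.33, adjusted p = 0.304). The other Hnf4a probe gave -0.70 and did not pass (limma over probes, adjusted p = 0.0947). Nr1h3, the oxysterol receptor that acts on Apoe, fell by 0.44 (SE 0.15, limma adjusted p = 0.0262), which spike-in scaling turned to 0.22. Nr2f2, an orphan receptor, was higher by 1.12 (SE 0.42, limma adjusted p = 0.0407), a call that ended under most alternatives, among them the slide as a block (0.86, adjusted p = 0.0506).

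**Figure D5:**
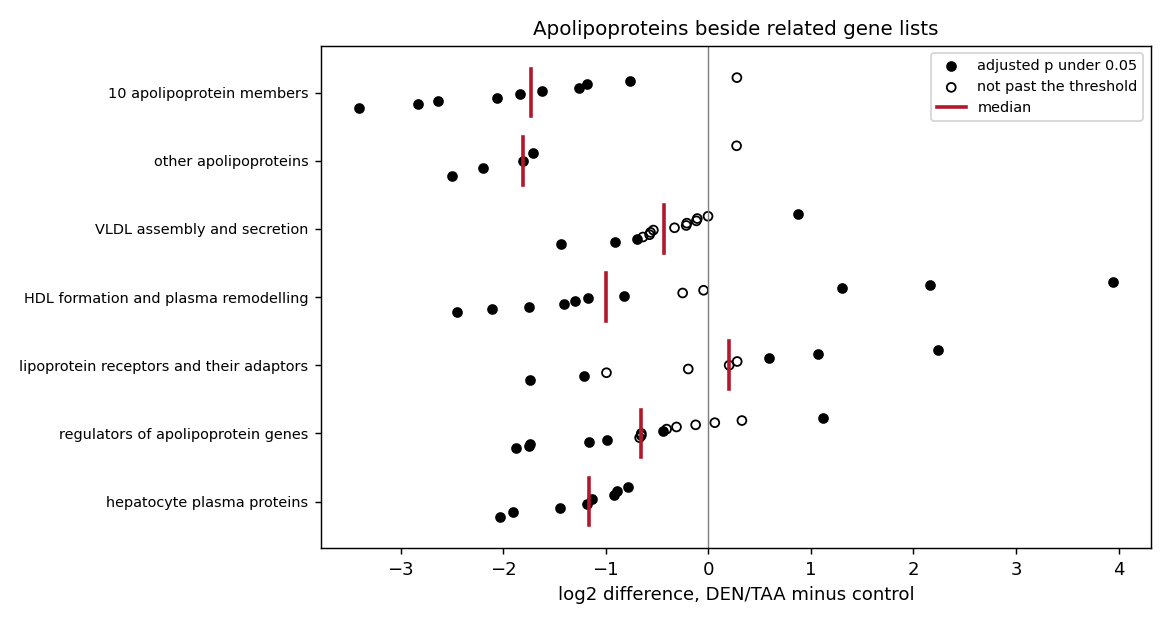
Log2 difference, DEN/TAA minus control (horizontal axis), of the 10 apolipoproteins and of the measured genes of 6 related lists, 1 point per gene, filled where the limma adjusted p is under 0.05, with the list median as a red line. Lpl (3.94), Sort1 (2.24) and Mylip (1.07) are drawn at their measured difference although no control array was above background for them, and the apolipoprotein medians lie furthest to the left.

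Markers of other liver cells moved with the groups, and their part in the apolipoprotein levels was not tested. The share of all genes that were higher, 39.2%, stands beside each count in this paragraph. Of 8 stellate and fibroblast markers measured of 10 listed, 6 were higher (4 to 8 over the 6 scalings) and 2 did not pass the test. Their mean level was -1.96 to -1.33 in DEN/TAA livers and -3.83 to -3.37 in control livers. Dcn, a matrix proteoglycan, was higher by 4.34, with 2 of 5 control arrays above background, or by 3.44 with the undetected control arrays raised to the lowest signal above background and 1.85 at the lowest over the 6 scalings, and Col1a2, a collagen chain, was higher by 2.89. All 3 biliary markers measured of 6 listed were higher, with a mean level of -2.86 to -1.82 in DEN/TAA livers and -5.97 to -5.09 in control livers. No control array was above background for 2 of them. Krt19, a keratin found in bile ducts, was higher by at least 9.93-fold on the percentile scale, with a lowest log2 difference over the 6 scalings of 1.90, below that bound. Epcam, an adhesion protein, was higher by 2.67, and by 1.22 at the lowest. Of 2 endothelial markers measured of 6 listed, 1 did not pass the test and 1 was higher, too few to set against that share. The latter was Lyve1, higher by 1.20, a call lost under normexp correction (0.62, adjusted p = 0.0566). The other Lyve1 probe gave 1.16 (limma over probes, adjusted p = 0.0507). The 8 hepatocyte proteins that mark the tissue were above background on each of the 10 arrays.

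The genes most like an apolipoprotein were sought by Pearson's r over the 10 arrays, on deviations from the group means, so that the treatment itself did not count. Apoa1 was closest to Oga (r = 0.966), F8 (r = 0.955) and Plscr1 (r = 0.946). Apoe was closest to Slit3 (r = 0.956), Fbxw17 (r = 0.947) and Ptgds (r = 0.943), of which Slit3 was higher in DEN/TAA livers by 3.58 while Apoe was lower. Apoa4 was closest to Thumpd3 (r = 0.918), Prepl (r = 0.850) and Bap1 (r = 0.836), and Apob to Oaf (r = 0.924) and Ufc1 (r = 0.900). These values share the arrays and their brightness, and they are given as descriptions, each among the highest over all genes tested.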

How the data were processed

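The submitters deposited 1 scanner file of spot intensity per array. Per the file headers it comes from Agilent Feature Extraction 11.5.1.1 (15.5 per the submitters' processing notes), whose header statistics cover background subtraction and detrending inside each array. The array percentiles of this intensity differ, so it was not yet scaled between arrays as deposited. A deposited table holds the authors' log2 values, which followed the rank order of each array's median spot signal (Spearman's rho of 1) with column medians between 8.592 and 8.594. Its direction is thus known, its values look quantile-normalised, and the tool behind it is not named by any label or header.

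Control spots and outlier-flagged spots were left out, log2 processed signals were averaged per probe, and each array's 75th percentile over the 6229 probes above background on all 10 arrays was subtracted. A probe was tested if above background on at least 5 arrays. A gene was represented by its brightest passing probe. Probes were named through accessions matched to RefSeq (GRCr8): of 41012 probes, 17502 had 1 symbol, 0 several and 23510 none. The array was annotated on another build, so the only coordinates given are those of the printed promoter windows, on GRCr8. Groups were compared with limma 3.58.1 in R 4.3.3 (lmFit, eBayes, two-sided, Benjamini-Hochberg over 6855 genes, threshold 0.05). The fit was also tested on simulated data. These held no brightness gap between the groups and no scaling step, so that test does not bear on the gap.

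The members and lists were chosen with earlier results of these data known. All members are named, with up to 2 changed genes per direction and list, by smallest adjusted p, and Mttp, Abca1, Lcat, Lrp1, Hnf4a, Nr1h3, Alb, Trem2 and Cd68 whatever their result. For 4 members, up to 3 genes most like them are named. Of the genes these rules name, 2 are not reported here. Alternatives were normexp correction (offset 50, on median spot signals), percentile over all probes, quantile normalisation, scaling on 5 spike-in probes, the authors' table, a filter on all 10 arrays, none at all, the mean over probes, slide and replicate number as blocks, and leaving out each rat. Leaving out the 2 dimmest control arrays was added after the data were seen. P-values measure the spread between rats, and the number of arrays limits the precision.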

Additional observations from a re-analysis of the deposited data

Results flagged for a closer look

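In 1 of the 20 sets of 5 values tested (10 genes in each group), 1 rat stood far from the other four. Apoc1 read 6.88 in control rat 5, against 5.84 to 6.10 in the other control rats, and a gap of this size arises by chance in about 1 in 20 such sets. That array had the fewest spots above background, 16.5%. Without control rat 5, Apoc1 was still lower in DEN/TAA livers, by 1.45 on the log2 scale.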

How the results depend on the processing

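Of the 10 apolipoproteins, Apom, Apoa2, Apoa4, Apoa5, Apoc1 and Apoc3 kept their direction and their call under all 21 alternatives, and the count past the threshold was 8 or 9 in each. Under quantile normalisation, spike-in scaling and the authors' table, 1 apolipoprotein, Apoa1, was higher, while the count of 0 higher held elsewhere. In the percentile over all probes Apoa1 gave -0.027. Apob lost its call under spike-in scaling, the authors' table and the mean over probes, Apoh under spike-in scaling, and Apoe under quantile normalisation and the authors' table. With the replicate block, 9 apolipoproteins passed. Same-numbered rats did not deviate together (correlations -0.22 to 0.20, with 1 of 5 DEN/TAA rats closest to its own number). Those numbered 1, 2, 3 and 5 did share a slide, and 5 correlations cannot exclude a weak link. The main test used no pairing. Between 30 and 36 pairs differed over the alternatives, and 6 to 8 genes differed from the hepatocyte mean.

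Over all genes, normexp correction gave 883 higher and 1950 lower calls, and spike-in scaling 4443 and 396, against 2689 and 1116 in the main setting. The percentile over all probes gave 1617 and 1597, quantile normalisation 1941 and 1353, the values deposited by the authors 2036 and 1315, no filter 2594 and 5801 of 13832 genes, and the filter on all 10 arrays 1154 and 944 of 3568.

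Several values turned sign, among them the called differences of Sort1, Mylip, Alb and Nr1h3, and for each the cause was not tested. Spike-in scaling turned Abca1 (0.61), Mttp (0.66) and Nr1h3 (0.22), and the slide block turned Abca1 (0.024) and Mttp (0.076). Quantile normalisation turned Alb (0.15), Apoa5 minus Apoc3 (-0.41), Apob minus the hepatocyte mean (-0.053) and Apoh minus that mean (-0.39). The authors' table turned Apoa5 minus Apoc3 (-0.20) and Apoh minus the hepatocyte mean (-0.30). Normexp correction turned Mylip (-0.49) and Sort1 (-0.36), which were dim. Without the 2 dimmest control arrays, Apoh minus the hepatocyte mean was -0.14 and Mttp 0.13. Leaving out 1 rat in turn moved Abca1 between -0.13 and 0.11, Mttp between -0.12 and 0.12, and Apoh minus the hepatocyte mean between -0.13 and 0.19. Nearest to 0 over the 6 scalings, Dgat2 gave -0.78, Lcat -0.74, Lrp1 -1.08, Mlxipl -0.99, Ttr -1.11 and Ambp -0.47. With 5 arrays per group and dim control arrays, small differences of dim genes are the least certain.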
